A study of Mus musculus with 2 samples.

Results

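The genes described here encode the respiratory chain and the ATP synthase of mitochondria, in CD4 T cells taken from mouse spleen. They were chosen by name: 95 nuclear genes whose symbols start with Nduf, Uqcr, Atp5 or Cox4 to Cox8, or are Sdha, Sdhb, Sdhc, Sdhd or Cyc1, and the 13 protein genes of the mitochondrial chromosome. Together they are 108 of the 35976 gene rows in the tables. Of the 95 nuclear genes, 84 encode subunits (36 of complex I, 4 of complex II, 9 of complex III, 20 of complex IV and 15 of complex V), 7 encode complex I assembly factors, 2 are pseudogenes, and 2 (Atp5s and Atp5sl) encode proteins that are not subunits. Ndufa4 and Ndufa4l2 are counted with complex IV, where their products belong.

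Complexes I and II feed electrons into the inner mitochondrial membrane, complexes III and IV pass them on to oxygen, and complex V, the ATP synthase, uses the proton gradient made on the way. Complexes I, III, IV and V are built from proteins of both genomes, while complex II is wholly nuclear. The mitochondrial genes are transcribed as long precursors from both strands of a small circular chromosome and then cut apart, whereas each nuclear gene has its own promoter. T cells raise mitochondrial respiration when they are activated and rely on it again as memory cells.

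The study compared OTII CD4 T cells, which carry a transgenic receptor for ovalbumin, after transfer into 2 kinds of host. Control hosts were C57BL/6 mice, and deleted hosts were labelled IL13Ra1f/f, CD11cCre/+. The floxed receptor gene is thus removed in CD11c-expressing cells of the host, which are mainly dendritic cells, and not in the transferred T cells. In both groups the cells were taken on day 7 after a treatment that the labels call CAS and a second priming, and single cells that were negative for propidium iodide and positive for Vb5.1-5.2 and CD4 were sorted into plates for SmartSeq2, a full-length RNA-seq method. Each group was 1 pool, of 2 control and of 3 deleted hosts, with 368 cells on 4 plates, and the sort named no marker that would set transferred cells apart from host CD4 T cells.

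There were no biological replicates. Plates are technical splits of a pool, no plate held cells of both pools, and plate and pool cannot be told apart. No difference below carries a test. The control pool held 573105030 reads in genes and the deleted pool 542650671, with 125197307 to 148025125 per plate. Levels are CPM, reads scaled to 1000000 reads in genes, summed over the cells of a plate or pool. Because the method has no molecular identifiers, intervals on levels cover the counting of reads only, and not the sampling of molecules. The 8 CD4 T cell markers with a row summed to 7002 to 7904 CPM on control plates and 6997 to 8278 CPM on deleted plates. Markers of other cells were low in the control and deleted pools. They summed to 5.10 and 6.31 CPM for 5 B cell genes and 23.4 and 24.8 CPM for 6 myeloid genes. The sums were 15.6 and 19.6 CPM for 3 natural killer cell genes and 12.1 and 13.7 CPM for 5 erythroid genes. For 2 CD8 T cell genes they were 26.5 and 9.47 CPM. Nearly all of this was Cd8b1, at 26.3 and 9.27 CPM, while Cd8a was at 0.155 and 0.199 CPM. Il13ra1 was at 2.35 and 0.197 CPM with 1 positive cell in each pool, which checks nothing, since the deletion was aimed at CD11c-expressing host cells.

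The mitochondrial genes have near-identical copies in the nuclear genome, and 2 pairs of stretches are shown because how reads were assigned between them bears on the levels of the genes that have copies. In the GENCODE M21 annotation (GRCm38), a block of unprocessed pseudogenes on chromosome 1 (24611535 to 24616197, minus strand) holds copies of part of COX1 and ND4 and of the nearly whole COX2, ATP6, COX3, ND3 and ND4L genes. The copies of COX2, ATP6, COX3, ND4L and 876 bases of ND4 were identical to the mitochondrial genes, and that of ND3 differed by T3C alone, counted from the first base of the gene. A whole-length copy of COX1, Gm13340 on chromosome 2, was 97.6% identical, with 37 mismatches. The first pair below is a stretch of COX2 and of its copy, which have no mismatch, and the second is a stretch of COX1 and of Gm13340, with the 5 mismatches in capitals. All are 5′ to 3′ on the strand of the gene, from GENCODE M21 transcripts.
COX2 (chrMT:7223-7302, plus strand): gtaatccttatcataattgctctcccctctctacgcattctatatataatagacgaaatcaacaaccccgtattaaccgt
Gm28661 (chr1:24615276-24615355, minus strand): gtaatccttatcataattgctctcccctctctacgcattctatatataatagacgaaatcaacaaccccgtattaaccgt
COX1 (chrMT:5782-5861, plus strand): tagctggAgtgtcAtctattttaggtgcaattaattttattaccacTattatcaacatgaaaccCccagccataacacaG
Gm13340 (chr2:22589114-22589193, minus strand): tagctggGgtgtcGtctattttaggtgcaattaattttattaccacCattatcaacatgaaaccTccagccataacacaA

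The share of a gene's 100-base stretches that also occurs in a transcript of another annotated gene was 99.9% for COX3, 99.5% for COX2 and for ATP6, 98.5% for ND4L, 97.6% for ND3, 60.8% for ND4, 30.8% for COX1 and 3.19% for ND2. It was 0 for ND1, ND5, ND6, CYTB and ATP8. ATP8 lies between COX2 and ATP6, whose first bases are 914 bases apart on the mitochondrial chromosome, and the first bases of their copies on chromosome 1 are also 914 bases apart, with no annotated gene in the 233 bases between the copies. ATP8 also shares 43 bases with ATP6 (chrMT:7927-7969, plus strand), in which a read cannot be given to one gene alone.
ATP8 and ATP6 overlap: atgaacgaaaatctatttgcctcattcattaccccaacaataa

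Among the mitochondrial genes, COX1 and CYTB dominated. COX1, the catalytic core of complex IV, took 61.7% of mitochondrial reads in the control pool and 62.7% in the deleted pool, and CYTB, the cytochrome b of complex III, took 22.7% and 21.5%. COX1 was at 14186, 12954, 12186 and 12099 CPM on control plates 1 to 4 and at 12669, 11806, 13976 and 13940 CPM on deleted plates 1 to 4. CYTB was at 5563, 4545, 4547 and 4279 CPM on control plates and 4443, 4165, 4386 and 5017 CPM on deleted plates. For both genes the highest control plate was plate 1, and the plates of the pools overlapped. The log2 ratio of deleted over control, computed on CPM + 1, was 0.03 for COX1 and -0.07 for CYTB.

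The 7 ND genes encode the membrane core of complex I. Per kilobase of gene, ND1 was at 1618 CPM in the control pool, ND4 at 411, ND5 at 392, ND2 at 212, ND6 at 84.6, ND3 at 59.2 and ND4L at 3.01. Levels within 1 complex thus differed widely. ND6 is the one read from the opposite strand. ND1 was at 1760, 1790, 1403 and 1257 CPM on control plates and 1571, 1514, 1680 and 1845 CPM on deleted plates. The log2 ratios of ND1, ND2, ND3, ND4, ND5 and ND6 lay between -0.09 and 0.12, and the plates overlapped for all 7 ND genes. ND4L, at 0.893 and 0.612 CPM, was under the 5 CPM that a gene needed in either pool to count as measured.

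The mitochondrial genes with the largest shared part stood low. Per kilobase, COX2 and COX3, the other mitochondrial subunits of complex IV, were at 40.5 and 57.5 CPM in control cells against 8317 for COX1, and ATP6, the proton channel subunit of complex V, was at 56.8 CPM. ND3 and ND4L were the lowest of the ND genes. ATP8, which had no annotated copy, was also low, at 9.37 CPM per kilobase (1.91 CPM in control and 1.85 CPM in deleted cells, under the minimum). The 10 copies have no row under their GENCODE names here, and how reads matching several places were counted is not given in the sources used here, so the part of the copies in these levels was not tested.

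**Figure D1:**
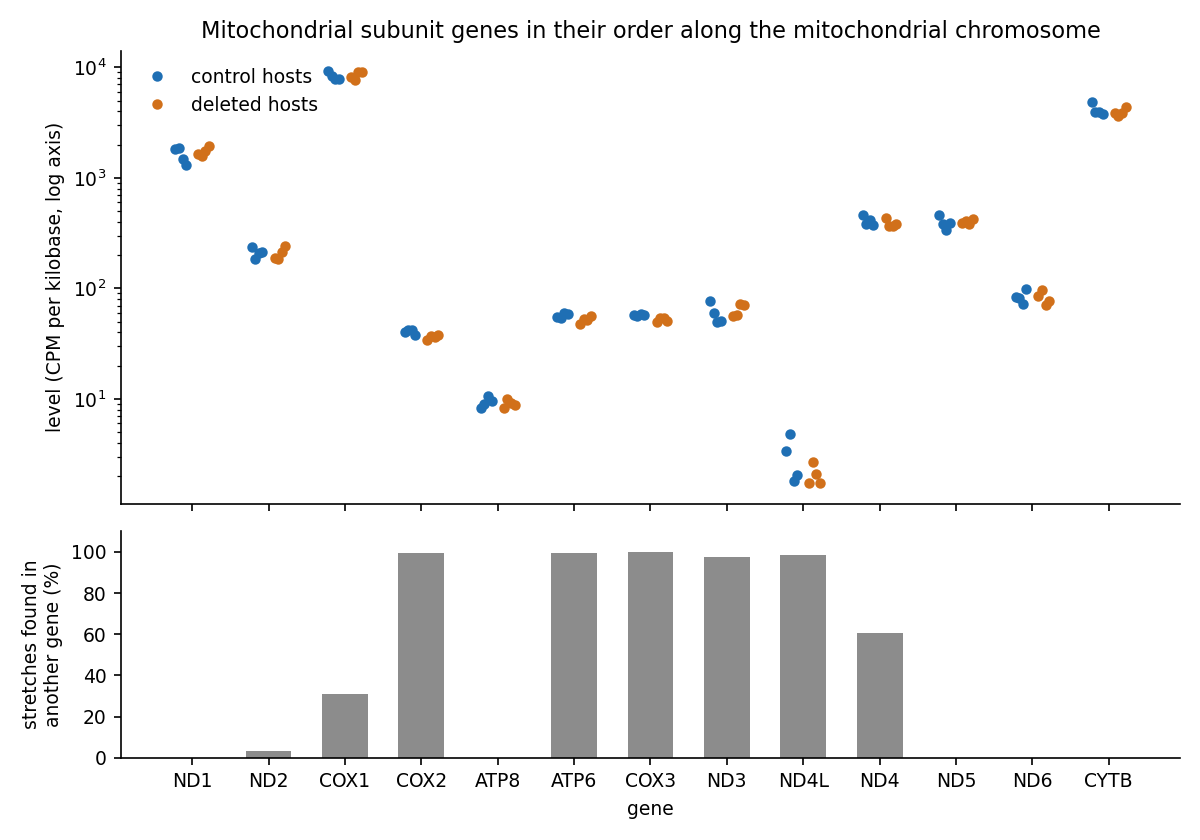
The upper panel shows the level of each mitochondrial gene in CPM per kilobase on a log axis, 1 point for each of the 4 plates of a pool, with genes in chromosome order. The lower panel shows the percent of 100-base stretches found in another annotated gene: COX2, ATP6, COX3, ND3 and ND4L are above 97% and sit low in the upper panel, and ATP8 is low with 0.

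Despite these low levels, COX2, COX3 and ATP6 were read in nearly every cell. At 10 CPM or more, the level taken as positive, COX3 was found in 98.6% of control and 99.2% of deleted-pool cells, ATP6 in 97.8% and 97.3% and COX2 in 93.5% and 88.3%. ND2 and ND5, with several times more reads, were positive in fewer cells, at 79.6% and 75% for ND2 and 80.7% and 79.1% for ND5. The spread between cells differed in the same way: the upper quartile of control cells was 1.91 times the lower quartile for ATP6, 1.87 times for COX3 and 1.56 times for COX1, but 26.9 times for ND2, 28.8 times for ND5 and 26.1 times for ND6. COX1 and CYTB were positive in 100% of the cells of both pools.

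COX2 and COX3 were lower in the deleted pool on every plate. COX2 was at 27.5, 28.6, 28.9 and 25.8 CPM on control plates and 23.4, 25.3, 24.8 and 25.7 CPM on deleted plates. COX3 was at 44.8, 44.1, 46.0 and 45.4 CPM on control plates and 39.1, 42.0, 42.3 and 39.7 CPM on deleted plates. The gaps were small, with log2 ratios of -0.15 and -0.14, and for COX2 the lowest control and highest deleted plate were nearly equal. ATP6 had a log2 ratio of -0.11 with overlapping plates (36.7 to 40.4 and 32.3 to 38.7 CPM). With the plates scaled by TMM or by median-of-ratios factors COX2 no longer separated (log2 ratio -0.13 under both), and as the mean of per-cell CPM neither COX2 (-0.19) nor COX3 (-0.13) did. Without the 14 cells in which mitochondrial genes took 5% or more of reads, COX2 separated and COX3 did not (-0.15).

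The nuclear genes took 1.12% of reads in the control pool and 1.06% in the deleted pool, against 2.08% and 2.09% for the mitochondrial genes. By plate, nuclear genes summed to 11914, 11297, 10813 and 10877 CPM in control cells and 10329, 10791, 11289 and 10077 CPM in deleted-pool cells. Mitochondrial genes summed to 23415, 20886, 19720 and 19265 CPM and to 20347, 19108, 21636 and 22528 CPM. The pools overlapped in both sums, with log2 ratios of -0.08 and 0.01. There were 1.85 mitochondrial reads for each nuclear read in the control pool (plates 1.77 to 1.97) and 1.97 in the deleted pool (1.77 to 2.24). Deleted plate 4 was the highest, and deleted plate 2 and control plate 4 were the lowest.

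The ratio of mitochondrial to nuclear reads was lower by orders of magnitude for complex V than for complexes I, III and IV. It was 1.02 and 1.18 for complex I, 3.13 and 3.06 for complex III, 7.27 and 8.65 for complex IV and 0.0105 and 0.00985 for complex V, in control and deleted pools. Plates overlapped in all of these, most narrowly for complex I (0.915 to 1.09 and 1.07 to 1.30) and complex IV (6.61 to 8.08 and 7.70 to 9.47). The mitochondrial reads of complex V are those of ATP6 and ATP8. Of the 100-base stretches of ATP6, 99.5% also occur in another annotated gene. Complexes I and IV also include mitochondrial genes with shared stretches. The part of read assignment in these ratios was not tested. Per kilobase, the median nuclear subunit was at 109 CPM in control cells. Of the 76 measured nuclear subunits, 0 were above COX1, CYTB or ND1, 2 were above ND4 and ND5, 11 above ND2, 52 above ND6, 63 above ND3, 64 above COX3 and ATP6, and 68 above COX2.

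**Figure D2:**
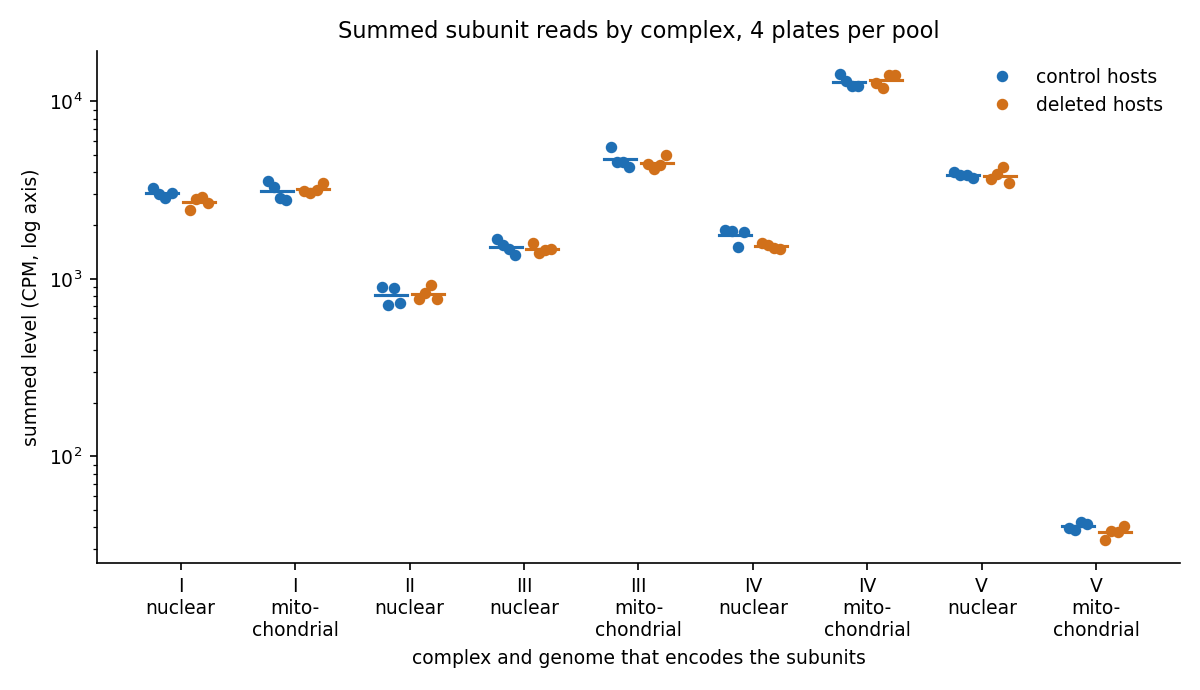
Summed CPM of the subunits of each complex, by the genome that encodes them, on a log axis; points are the 4 plates of a pool and lines the whole pool. Nuclear complexes I and IV are the nuclear sums in which 3 of 4 control plates lie above all deleted plates, and mitochondrial complex V, with ATP6 and ATP8 alone, is near 40 CPM.

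Of the 95 nuclear genes, 85 were measured at 5 CPM or more in either pool, as were 11 of the 13 mitochondrial genes. Within these 96, 5 were lower and 1 was higher on every plate of the deleted pool than on every plate of the control pool. Among all 9764 measured genes, 2.6% were lower and 1.81% higher by the same rule (4.41% in either direction), and for the 85 nuclear genes alone the count was 4, or 4.71%. The members' share is near that background and is read as no result about them. Of the members, 0 were 2-fold lower or higher on the CPM + 1 scale, against 6.71% and 5.98% of all measured genes. At a minimum of 20 CPM the members numbered 91, and the same 6 separated, where 2.86% of genes were lower, 1.82% higher and 4.68% either; 3.16% of genes were then 2-fold lower, 2.75% 2-fold higher and 54.6% below 0. Most members lay slightly below 0: 58 of 85 nuclear genes had a log2 ratio below 0, with a median of -0.14, where 53.7% of all measured genes were below 0 and their median was -0.04.

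Complex I had 36 nuclear subunits, all measured, with a median log2 ratio of -0.23. Of these subunits 27 were below 0, against 53.7% of all measured genes. The summed level of the subunits was 3039 CPM in control and 2715 CPM in deleted-pool cells, 10.7% lower, with overlapping plates (2841 to 3266 and 2458 to 2880). Control plate 3 alone lay inside the deleted range. Among the most abundant were Ndufs1 and Ndufs7, core subunits of the arm that carries electrons to ubiquinone. Ndufs1 was at 173 and 133 CPM (log2 ratio -0.38) and Ndufs7 at 159 and 130 CPM (-0.28), each with overlapping plates. The range over the complex ran from -0.53 for Ndufs3 to 0.36 for Ndufs8, both also of that arm and both chosen for mention after their values were seen; that of Ndufs8 was 0.12 without deleted plate 2. Ndufs3 was at 126, 104, 109 and 106 CPM on control plates and 66.2, 73.1, 108 and 60.2 CPM on deleted plates, so that deleted plate 3 alone reached the control range.

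The complex I subunits that separated were Ndufa13, Ndufb10 and Ndufv1. Ndufv1 (chromosome 19, 4007499 to 4012755, GRCm38), which binds the flavin that takes electrons from NADH, was at 140, 158, 156 and 137 CPM on control plates and 111, 107, 131 and 131 CPM on deleted plates. Ndufa13 (chromosome 8, 69894163 to 69902558), an accessory subunit also known as GRIM-19, was at 152, 134, 133 and 157 CPM on control plates and 111, 103, 101 and 123 CPM on deleted plates. Ndufb10 (chromosome 17, 24722060 to 24724423), an accessory subunit of the membrane arm, was at 93.4, 103, 99.7 and 108 CPM on control plates and 55.4, 85.6, 90.3 and 65.4 CPM on deleted plates. All deleted plates lay below all control plates in these 3 genes, with Ndufb10 the nearest to overlap. Their log2 ratios were -0.29, -0.39 and -0.44. The share of positive cells for Ndufa13 was 61.4% in the control pool and 50.5% in the deleted pool. For Ndufb10 it was 36.7% and 31.5%, and for Ndufv1 19.6% and 17.7%. These shares come from the same reads by which the genes separated, so they are no separate support. Cells of a pool are not replicates.

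Of the 7 complex I assembly factors 1 had a log2 ratio below 0, where 53.7% of all measured genes did, and the median was 0.54. This count rested in part on single plates: Ndufaf5 went from 0.08 to -1.27 without deleted plate 3, where it was at 42.4 CPM against 3.62 to 6.60 CPM on the other deleted plates, and Ndufaf1 from 0.16 to -0.03 without control plate 1. Their sum was 143 CPM in control and 184 CPM in deleted-pool cells with overlapping plates (112 to 182 and 152 to 227). Ndufaf3 (chromosome 9, 108565587 to 108567436), which helps build the ubiquinone-binding module, was the separated one, at 24.6, 24.6, 18.2 and 22.1 CPM on control plates and 45.7, 39.8, 40.2 and 25.1 CPM on deleted plates. Deleted plate 4 was close to the control plates. Ndufaf4, its partner in the same step, was at 29.6, 26.7, 15.1 and 14 CPM and at 35, 23.6, 35.1 and 46.7 CPM, so its plates overlapped. The log2 ratios were 0.72 and 0.71. Ndufaf3 rested on few cells, with 26 positive in the control and 40 in the deleted pool, and its plates overlapped (log2 ratio 0.59) as the mean of per-cell CPM. Ndufaf2, a late assembly factor at 2.58 and 5.67 CPM, had the largest ratio of any member at 0.90, which is 1.86-fold on the CPM + 1 scale. It was positive in 9 control and 15 deleted-pool cells, 1 cell held 32.4% of its control reads, and the ratio was 0.58 without control plate 4 and 1.66 without control plate 1. Ndufaf7, a methyltransferase, was the one below 0 (-0.16), and was at 0.14 without deleted plate 4. Ndufaf6, whose log2 ratio was the median of 0.54, was positive in 11 control and 14 deleted-pool cells. Its ratio was 0.20 to 0.73 over all settings. Ndufaf1, Ndufaf2, Ndufaf4, Ndufaf5, Ndufaf6 and Ndufaf7 were chosen for mention after their values were seen.

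**Figure D3:**
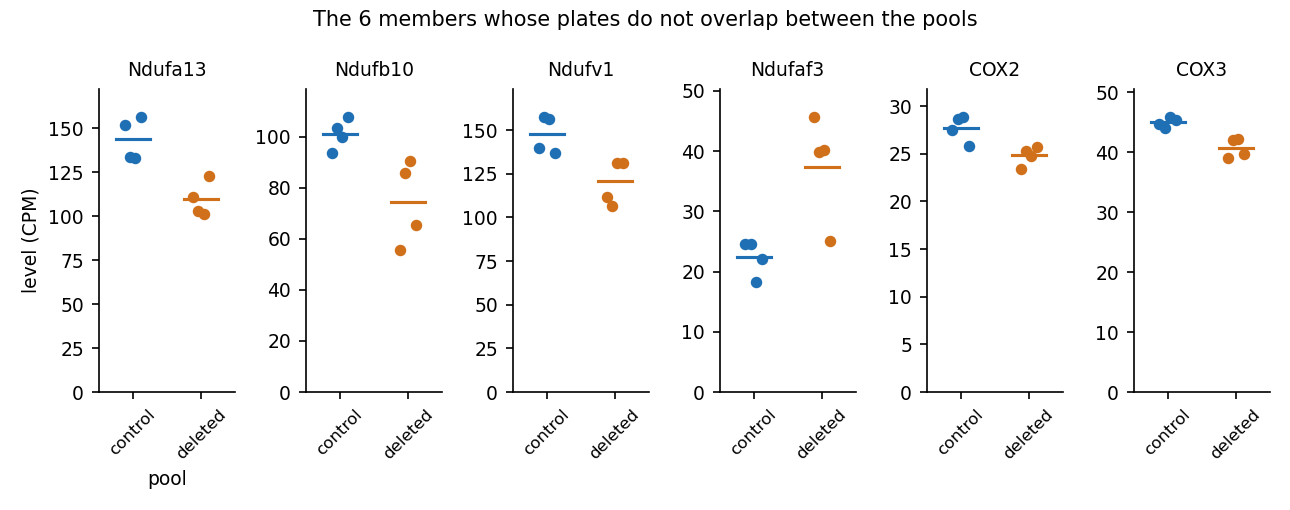
Levels in CPM of the 6 members whose plates do not overlap between the pools, with 1 point for each plate and a line for the pool; every axis starts at 0. Ndufa13, Ndufb10 and Ndufv1 differ by more than COX2 and COX3, and Ndufaf3, the higher one, has 1 deleted plate at 25.1 CPM next to the control range.

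Complex II showed no shared direction. Sdha, the flavoprotein that oxidises succinate, was at 595, 449, 580 and 383 CPM on control plates and 414, 583, 600 and 475 CPM on deleted plates. Sdhb, the iron-sulfur subunit, was at 184 and 168 CPM in the pools, and the membrane anchors Sdhc and Sdhd at 51.5 and 56.5 and at 73.8 and 80.1 CPM. Each had overlapping plates, and the log2 ratios were 0.05, -0.13, 0.13 and 0.12. Those of Sdha, Sdhc and Sdhd changed sign when 1 plate was left out (lowest values -0.06, -0.01 and -0.01). The 4 subunits summed to 811 and 825 CPM.

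Complex III was likewise close between pools, at 1513 and 1475 CPM for 9 nuclear subunits. Of the 9, 4 were below 0 (median 0.01), where 53.7% of all measured genes were. Uqcrc1, a core protein of the matrix side, was at 609, 526, 543 and 502 CPM on control plates and 599, 427, 531 and 447 CPM on deleted plates. Its partner Uqcrc2 was at 231 and 235 CPM, the Rieske iron-sulfur protein Uqcrfs1 at 186 and 212 CPM, and the cytochrome c1 gene Cyc1 at 150 and 152 CPM. The plates overlapped for these 4 genes, and their log2 ratios were -0.13, 0.03, 0.18 and 0.02. Uqcrb, named after its values were seen, had the lowest ratio of the complex at -0.41 (57.3 to 79.7 and 46.5 to 61.1 CPM).

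In complex IV every measured nuclear subunit had a lower level in the deleted pool. Of 20 genes, 12 were measured and all 12 had log2 ratios below 0, where 53.7% of all measured genes were, from -0.42 to -0.12 with a median of -0.24, though none separated by plate. They summed to 1881, 1871, 1518 and 1841 CPM on control plates and 1603, 1543, 1486 and 1478 CPM on deleted plates, 14.2% lower in the pool. Control plate 3 alone lay inside the deleted range. Cox4i1, the subunit through which ATP regulates the enzyme, was at 554, 470, 401 and 471 CPM and at 446, 435, 411 and 383 CPM. Cox7a2l was at 344 and 311 CPM and Cox8a at 172 and 134 CPM. The log2 ratio of Cox8a was -0.36, and -0.17 without control plate 4 (232 CPM, against 143 to 161 on the other control plates). Leaving out any 1 plate kept 11 or 12 of the 12 below 0. The mitochondrial part of complex IV was 12923 and 13190 CPM, so the log2 ratio was -0.22 for the nuclear and 0.03 for the mitochondrial sum.

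Where complex IV has tissue forms, the cells used the common one. Cox5a and Cox5b, distinct subunits, were at 98.1 and 83.8 CPM and at 85.8 and 74.4 CPM. Over the 736 cells, Cox4i1 had 498518 reads and Cox4i2, the form of lung, 1 read. Cox6a1 had 106995 reads against 57 for Cox6a2, and Cox7a2 had 55376 against 247 for Cox7a1, both of which are forms of heart and muscle. Cox6b1 had 122430 reads against 220 for the testis form Cox6b2, of which 205 came from 1 cell. Cox7b2, Cox8b, Cox8c and Ndufa4l2 had 0 reads, which allows up to 0.00523 CPM in the control and 0.00553 CPM in the deleted pool, while Cox7b, Cox8a and Ndufa4 had 49146, 170876 and 83982. These 8 alternative forms and the pseudogenes Atp5c1-ps and Uqcrh-ps1, with 0 reads each, are the 10 nuclear genes that were not measured.

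Complex V held the most abundant nuclear genes. Atp5b and Atp5a1 encode the beta and alpha subunits of the catalytic head. Atp5b took 10.3% of all reads of nuclear subunits and was at 1045, 1105, 1090 and 992 CPM on control plates and 1252, 1055, 1437 and 870 CPM on deleted plates. Deleted plates were both the highest and the lowest, and the log2 ratio of 0.12 was -0.01 without deleted plate 3. Atp5a1 was at 892 and 873 CPM and Atp5c1, the central stalk, at 328 and 364 CPM, with overlapping plates. Of the 15 subunits 12 were below 0 (median -0.11), where 53.7% of all measured genes were. The sum of the 15 subunits was nonetheless 3861 and 3822 CPM, a log2 ratio of -0.01, since Atp5b and Atp5c1 were higher. The 3 genes for the ring subunit c, which encode the same mature protein, were at 90.9 and 82.2 CPM (Atp5g1), 80.5 and 79.8 (Atp5g2) and 116 and 124 (Atp5g3). Atp5g2 shares 86.4% of its 100-base stretches with other annotated genes, so its value is uncertain. Atp5s and Atp5sl, the non-subunits, had log2 ratios of 0.07 and -0.05, which changed sign when 1 plate was left out (-0.34 to 0.35 and -0.36 to 0.37).

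**Figure D4:**
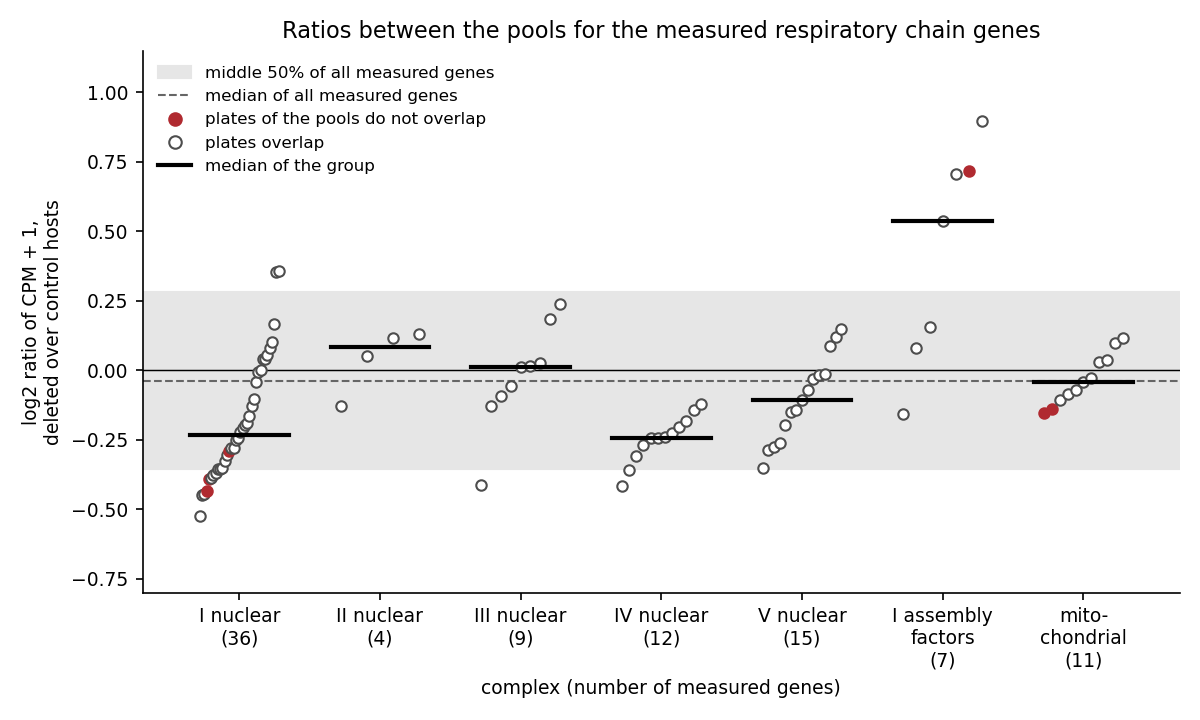
The log2 ratio of each measured member, deleted over control, sorted within each complex; filled points are members whose plates do not overlap and thick bars are group medians. The medians lie at -0.23 for complex I, -0.24 for complex IV and 0.54 for the assembly factors, and the grey band is the middle 50% of all 9764 measured genes.

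Short genes stood somewhat lower than long ones. The median log2 ratio was -0.22 for the 31 measured nuclear genes with transcripts under 700 bases. It was -0.13 for 31 of 700 to under 1500 bases and -0.11 for 22 of 1500 bases or more. Spearman's rho between length and log2 ratio was 0.22 over 84 genes. Length, here and per kilobase, is that of the longest protein-coding GENCODE transcript with a RefSeq mRNA, where there was one. Atp5g1 (4715 bases) and Ndufab1 (3479 bases) so count as long. Of the assembly factors, Ndufaf2 alone was under 700 bases. The same classes over all genes are not given here. In the list of cytosolic ribosomal protein genes 77 of 93 measured genes were below 0, against 53.7% of all measured genes, and 22 were lower on every plate, against 2.6%, with a median of -0.12, which was -0.13 without the Rps6k kinase genes and Rps19bp1 that share the name. At 20 CPM or more the largest ratios in it were those of such genes, Rps6ka4 (-0.91, and -0.45 without control plate 3), Rps19bp1 (-0.61, and -0.32 without deleted plate 2) and Rps6kb2 (0.60, and 0.39 without deleted plate 1). The part of transcript length in the members' ratios was not tested.

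The promoters of the nuclear genes were searched for motifs of factors known to control respiratory genes. In RefSeq windows of 250 bases before to 50 bases after the start (GRCm38.p6), which were at hand for 73 of the 95 genes, the palindrome of NRF1, CGCATGCG, occurred in 11 genes, and in 14.1% of the 78 windows against 1.87% of all 32851 windows. The YY1 motif AAGATGGC, on either strand, occurred in 9 genes (11.5% of windows against 2.75%). The ETS motif CCGGAAGT, on either strand, occurred in 5 (6.41% against 3.89%), and TATAAA, on either strand, in 10.3% against 13.6%. Genes with and without the NRF1 palindrome had median log2 ratios of -0.11 (11 measured genes) and -0.16 (58 genes). A few stretches with the palindrome in capitals show how differently it sits: directly at the start in Ndufa8, 41 bases before it in Atp5k and 104 and 153 bases before it in Ndufaf4 and Cox6a1.
Ndufa8 (chr2:36049339-36049377, minus strand): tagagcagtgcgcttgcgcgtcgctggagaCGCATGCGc
Atp5k (chr5:108434411-108434478, minus strand): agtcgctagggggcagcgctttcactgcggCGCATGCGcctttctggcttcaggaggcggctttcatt
Ndufaf4 (chr4:24897941-24898008, plus strand): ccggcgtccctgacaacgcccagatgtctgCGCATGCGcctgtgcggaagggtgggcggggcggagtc
Cox6a1 (chr5:115349082-115349149, minus strand): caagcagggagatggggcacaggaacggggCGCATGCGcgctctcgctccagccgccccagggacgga

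Other genes of the pathway gave further context. The 16 tricarboxylic acid cycle and pyruvate dehydrogenase genes had a median log2 ratio of 0.04. Of the 16, 0 were past 2-fold, against 6.71% lower and 5.98% higher of all measured genes. There were 9 above 0 and 7 below, where 53.7% of all measured genes were below 0. Dlat, the acetyltransferase core of pyruvate dehydrogenase, was at 27.5 and 52.1 CPM, and Dld, its lipoamide dehydrogenase, at 105 and 159 CPM. Plates overlapped for Dlat, and for Dld deleted plates (147 to 171 CPM) overlapped control plate 1 alone (152 CPM). Dlst, the matching enzyme of the 2-oxoglutarate complex, was at 104 and 80.3 CPM, also with overlap. Among 10 electron carriers and membrane transporters (median -0.08), 1 was lower on every deleted plate, where 2.6% of all measured genes were. It was Etfdh, which passes electrons from fat oxidation to ubiquinone and was named for its large ratio. Etfdh was at 65.9, 122, 55.3 and 68.0 CPM on control plates and 26.7, 42.3, 40.4 and 49.98 CPM on deleted plates. Its log2 ratio was -0.92, and -1.05 to -0.64 with 1 plate left out (highest without control plate 2). Slc25a4 (108 and 77.9 CPM), an ADP/ATP carrier, and Etfa (102 and 83.3 CPM), which hands electrons to Etfdh, overlapped.

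Some genes for building the complexes and for running the mitochondrial genome were past 2-fold, in counts to be read against the 6.71% lower and 5.98% higher of all measured genes. Of 17 measured complex IV assembly genes, 1 was 2-fold higher and 3 were 2-fold lower (median -0.06), among them Surf1, needed for the insertion of heme into COX1, at 61.9 and 25.5 CPM with overlapping plates (27.0 to 109 and 10.5 to 47.6). Its log2 ratio of -1.25 was -0.81, under 2-fold, without control plate 4. Cox15 was at 20.3 and 12.7 CPM and Coa6 at 16.1 and 22.5 CPM, both with overlapping plates. The log2 ratio of Cox15 was -0.64, and -0.05 without control plate 4 (40.8 CPM), and that of Coa6 was 0.46, and 0.23 without deleted plate 2. Of 19 assembly genes of the other complexes, 1 was higher and 1 lower (median -0.08), and Acad9, Atpaf2 and Sdhaf4 had the largest ratios at 20 CPM or more (-0.79, 0.73 and -0.49), all with overlapping plates. Leaving out 1 plate gave -1.24 to -0.44 for Acad9 (lowest without deleted plate 1, highest without deleted plate 3), 0.46 to 0.88 for Atpaf2 (without control plates 4 and 2) and -0.77 to -0.21 for Sdhaf4 (without deleted plates 1 and 3). Of 16 measured genes of mitochondrial DNA copying and transcription, 1 was 2-fold lower (median -0.08). Gabpb1 and Gabpa, the subunits of the ETS factor that binds many respiratory gene promoters, were at 90.04 and 50.4 CPM and at 53.1 and 30.6 CPM. Polg2, a subunit of the mitochondrial DNA polymerase, was at 30.8 and 51.7 CPM, and the plates overlapped for all of these genes. Leaving out 1 plate gave log2 ratios of -1.12 to -0.67 for Gabpb1 and 0.59 to 0.91 for Polg2. That of Gabpa was -0.77, and -0.98 to -0.35 with 1 plate left out (highest without control plate 2).

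The mitochondrial ribosome, which translates the 13 mitochondrial proteins, lay between the nuclear subunits and all measured genes. Its 77 genes were all measured, and 49 (63.6%) were below 0, with a median of -0.12. Of the measured nuclear subunits 73.7% were below 0 (median -0.17), and of all measured genes 53.7% (median -0.04). The 77 genes summed to 3738 and 3388 CPM with overlapping plates (3393 to 4058 and 3210 to 3564). By plate, 4 were lower and 1 higher in the deleted pool throughout, near the 4.41% of all measured genes in either direction. By size, 3 were 2-fold lower and 0 higher, against 6.71% and 5.98%. Mrps2 was the furthest apart, at 44.4, 52.7, 25.2 and 69.4 CPM on control plates and 20.7, 0.259, 19.5 and 0.146 CPM on deleted plates. Mrpl50 separated as well (35.6 and 15.8 CPM), while Mrpl27 overlapped (49.2 and 22.3 CPM). The log2 ratio of Mrpl50 was -1.12, and -0.72 without control plate 1, and that of Mrpl27 was -1.11, and -0.96 without deleted plate 1, so both were then under 2-fold.

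In single cells the mitochondrial share exceeded the nuclear share almost throughout, in 343 of 368 control and 346 of 368 deleted-pool cells. The median cell had 1.09% nuclear and 2.03% mitochondrial reads in the control pool and 1.003% and 2.02% in the deleted pool. Plate medians of the nuclear share were 1.18, 1.101, 1.03 and 1.05% in control plates and 1.02, 1.02, 1.01 and 0.978% in deleted plates. The control plates thus lay above the deleted plates by these medians, control plate 3 by the smallest margin. By means over cells the plates overlapped, at 1.16, 1.11, 1.07 and 1.07% in control plates and 1.001, 1.06, 1.098 and 0.991% in deleted plates. Plate medians of the mitochondrial share overlapped, from 1.84 to 2.22% and from 1.91 to 2.08%. Within plates the 2 shares had little relation across cells: Spearman's rho lay between -0.19 and 0.11 over the 92 cells of each plate, a description of cells that share a plate and differ in depth.

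**Figure D5:**
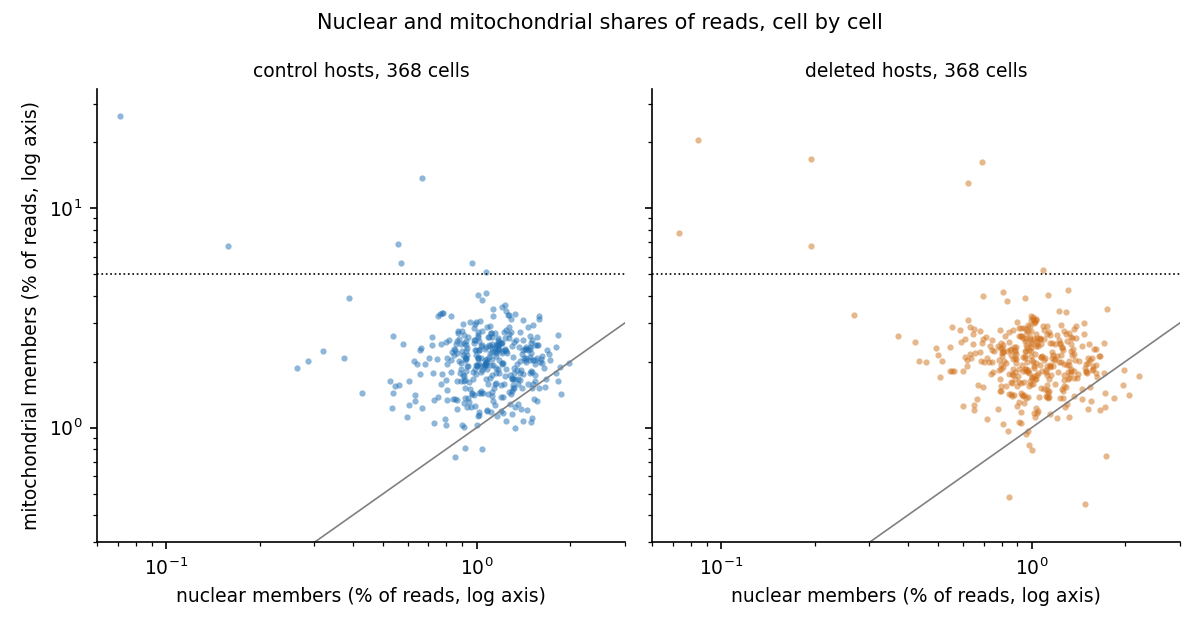
Each point is a cell, with the percent of its reads in nuclear members (x) and in mitochondrial members (y), both on log axes; the grey line marks equal shares and the dotted line 5% mitochondrial reads. In each pool 7 of 368 cells lie above the dotted line, and most of these have a lower nuclear share than the main cloud.

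Most single subunits were positive, at 10 CPM or more, in a minority of cells. The exceptions were 18 of the 76 measured in the control and 17 in the deleted pool. Cells under that level can still hold reads of the gene. The median over the 76 measured nuclear subunits was 37.2% positive cells in the control and 35.2% in the deleted pool. The widest was Cox4i1 (76.4% and 75.5%), and 0 of the 76 reached 90% in either pool. The lowest shares were those of Sdhd in control cells (16.6%) and of Ndufs1 in deleted-pool cells (16.03%). A median control cell was positive for 29 members of the nuclear subunit set and a median deleted-host cell for 27. Depth was similar, with a median of 1592794.5 reads per control and 1499762 per deleted-host cell. The summed nuclear levels of the complexes also varied between cells by different amounts. The upper quartile of control cells was 1.85 times the lower for complex I, 1.87 times for IV and 1.84 times for V. It was 2.82 times for III, and for complex II the quartiles were 6.77 and 1291 CPM. The sums with the wider spread held fewer measured genes: 9 for III and 4 for II, against 36 for I, 12 for IV and 15 for V. The part of the number of genes in these spreads was not tested.

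The 14 cells with 5% or more mitochondrial reads, 7 in each pool (1.90%, exact interval 0.768 to 3.88%), stood apart in other measures. They had a median of 585048 reads against 1535379 in the other cells, 1021 genes with 5 or more reads against 1566, and 0.565% nuclear reads against 1.04%. Cytosolic ribosomal protein genes took 2.24% of their reads against 4.86%. The highest mitochondrial share was 26.5%. Without these cells the summed log2 ratio of the nuclear genes was again -0.08.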

How the data were processed

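Full-length single-cell RNA-seq (SmartSeq2) was done on 2 pools of CD4 T cells, each on 4 plates. The deposited values are read counts per gene and well, made by the authors with featureCounts 2.0.1 on mm10, per the submitters' processing notes; for the aligner, annotation, strand setting and handling of multi-mapped reads, the choice is not given in the sources used here. Of 96 wells per plate, 92 were cells, and the 32 wells named mBM10, mBM100, noinput or dw were left out. The 4 plates of a pool were numbered from 1 by the order of the plate numbers in their labels. All 736 cells were kept, with no doublet caller; 1 had under 10000 reads.

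Counts were summed per plate and pool and scaled to CPM, and log2 ratios used CPM + 1. A gene was measured at 5 CPM in either pool, separated when every plate of one pool was above every plate of the other, and positive in a cell at 10 CPM. With 1 pool per group no test was made. Named genes were all mitochondrial genes and, of the nuclear ones, the 3 most abundant of each complex, the separated ones at 20 CPM, the Sdh genes, Cyc1 and isoform sets; in other lists up to 3 with the largest ratios at 20 CPM. The values of 1 gene that this rule names are not reported here. Members and lists were chosen with earlier results of these data known. Intervals are exact Poisson or Clopper-Pearson at 95%. Scripts (python 3.11.15, numpy 2.4.6, pandas 2.3.3, scipy 1.17.1, matplotlib 3.10.9; edgeR 4.0.16 in R 4.3.3 for TMM factors alone) were tested on simulated data. Alternatives were other scalings, filters, pseudocounts and cell sets, thinning to 200000 reads per cell, and leaving out each plate.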

Additional observations from a re-analysis of the deposited data

Results flagged for a closer look

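The wells named mBM10 or mBM100, which enter no comparison and whose names the labels do not explain, also held reads of the nuclear respiratory genes. Over the 22 such wells with 20000 reads or more, the median share of reads in these genes was 1.27% (1.09 to 1.56%), above the 1.17% (0.835 to 1.30%) of the 9 wells named noinput or dw, and the ranges overlapped. The mitochondrial genes took 0.889% in the mBM wells and 1.68% in the noinput or dw wells. The noinput or dw wells held 6698 to 12348 reads each, against 580094 to 2740373 in those mBM wells. The cause was not tested.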

How the results depend on the processing

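No paired analysis was possible because each group is 1 pool and plate numbers only name the plates. No called result changed sign under the alternatives run; values near 0 did, as given below. The cytosolic ribosomal median of -0.12 became -0.10 with median-of-ratios and -0.10 with TMM factors, and -0.16 to -0.093 when each plate was left out. As means over cells instead of medians, the nuclear share in the deleted pool was 1.04% and the mitochondrial share 2.18% in the control and 2.25% in the deleted pool. At 50 CPM, positive cells for the median subunit in the deleted pool fell from 35.2% to 30.4%. The 4 separated nuclear genes became 5 to 10 when 1 plate was left out (5 without control plate 2, 10 without control plate 3), where fewer plates have to separate, and 6 with the mean of per-cell CPM or without cells at 5% mitochondrial reads, an alternative chosen after seeing the data.
Over all settings the summed log2 ratio was -0.11 to -0.05 for nuclear genes, -0.29 to -0.19 for nuclear complex IV, -0.19 to -0.12 for nuclear complex I and 0.24 to 0.48 for assembly factors. It took both signs for mitochondrial genes (-0.03 to 0.07), complex II (-0.03 to 0.08), nuclear complex III (-0.08 to 0.01) and nuclear complex V (-0.07 to 0.03), as did the medians of the mitochondrial DNA list (-0.26 to 0.09) and of the other assembly genes (-0.17 to 0.08). TMM scaling left 51.8% and median-of-ratios scaling 51.1% of all measured genes below 0, with 55 of 85 nuclear members under both. Leaving out 1 plate changed the sign for 32 of 96 measured members. With 1 pool per group, differences between pools and between mice cannot be told apart.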
